A study of Mus musculus with 7 samples.

Results

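The genes described are Nfe2l2, which encodes the transcription factor NRF2, its inhibitor gene Keap1 and antioxidant genes that NRF2 activates, measured as liver RNA. They were taken by gene symbol from a named set of 10, of which 9 had a row among the 14889 genes of the table. All 9 passed the filter on low counts, as did 13693 genes in all. The remaining one, Slc7a11, the cystine-importing subunit of a cystine and glutamate exchanger, has no expression value here, and only its promoter letters were searched.

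The treated group held 3 ApoE-/- mice given PX-478 at 40 mg/kg and the control group 4 ApoE-/- mice given saline, both by intraperitoneal injection on a schedule called bi-weekly. All 7 mice were of the C57BL/6 strain, 4 months old, and had eaten Western diet for 3 months. The shared loss of apolipoprotein E and the diet make these livers a model of high plasma cholesterol, and no mouse with intact Apoe or on another diet is among them. PX-478 is a prodrug derived from the alkylating agent melphalan and is used to inhibit HIF-1α.

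NRF2 is held in the cytoplasm by KEAP1, which delivers it to a CUL3 ubiquitin ligase for degradation. Oxidants and electrophiles modify cysteines of KEAP1, NRF2 then accumulates, pairs with a small MAF protein and binds antioxidant response elements near its target genes. In liver this response supplies glutathione and thioredoxin enzymes that remove peroxides and reactive drug metabolites. Because the control of NRF2 acts largely on the protein, its own transcript need not follow its activity.

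The libraries held 10285776 to 17257304 counted reads, and mitochondrially encoded genes took 22.4% to 36.7% of them. PX-478 replicate 2 had both the fewest reads and the lowest mitochondrial share. Levels are given as CPM, each gene's share of a library's reads after scaling with TMM factors (trimmed mean of M-values), where 3 reads in a library correspond to 0.188 to 0.260 CPM. That limit covers counting error only. Differences were tested with edgeR's quasi-likelihood test over all 13693 genes, with p-values adjusted by Benjamini-Hochberg and a threshold of 0.05. Reads assigned to Apoe gave 212, 144 and 351 CPM in PX-478 livers, against 263, 284, 130 and 138 CPM in saline livers, and counts over the whole gene do not show which of its exons they came from. The labelled tissue was checked by hepatocyte markers such as albumin and transthyretin, which together gave 31010 to 38080 CPM in PX-478 livers and 34910 to 49920 CPM in saline livers. Of 6 such markers 5 had log2 fold changes below 0 and 1 above (median -0.37), and the 1 at an unadjusted p under 0.05 was Ttr, at -0.57 (adjusted p = 0.620). Their part in the values of the antioxidant genes was not tested.

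None of the 9 genes passed the threshold in either direction, in a comparison that called 0 genes higher (0%) and 1 gene lower (0.0073%) of all tested. That gene was Cfd, the adipsin gene, named after its value was seen (log2 fold change -5.89, SE 0.50, adjusted p = 0.000662). DESeq2 called 46 genes higher and 37 lower, with none of the 9 among them. At an unadjusted p under 0.05 there was 1 of the 9, Srxn1, which was lower in PX-478 livers. That rate is 11.1%, beside 6.97% of all genes tested, 3.48% higher and 3.48% lower. Of the 9 log2 fold changes 3 were above 0 and 6 below, with a median of -0.14, though without TMM factors 4 were below, Gclc and Txnrd1 then standing above 0. Over all genes tested 49.7% were above 0 and 50.3% below with TMM factors, with a median of -0.0035. Without the factors the median of all genes tested was 0.145, and that of the 9 was 0.041. Srxn1 was also the one gene of the 9 whose groups did not overlap in scaled CPM, against 8.59% of all genes tested, 4.3% with every PX-478 library above and 4.29% with every PX-478 library below.

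**Figure D1:**
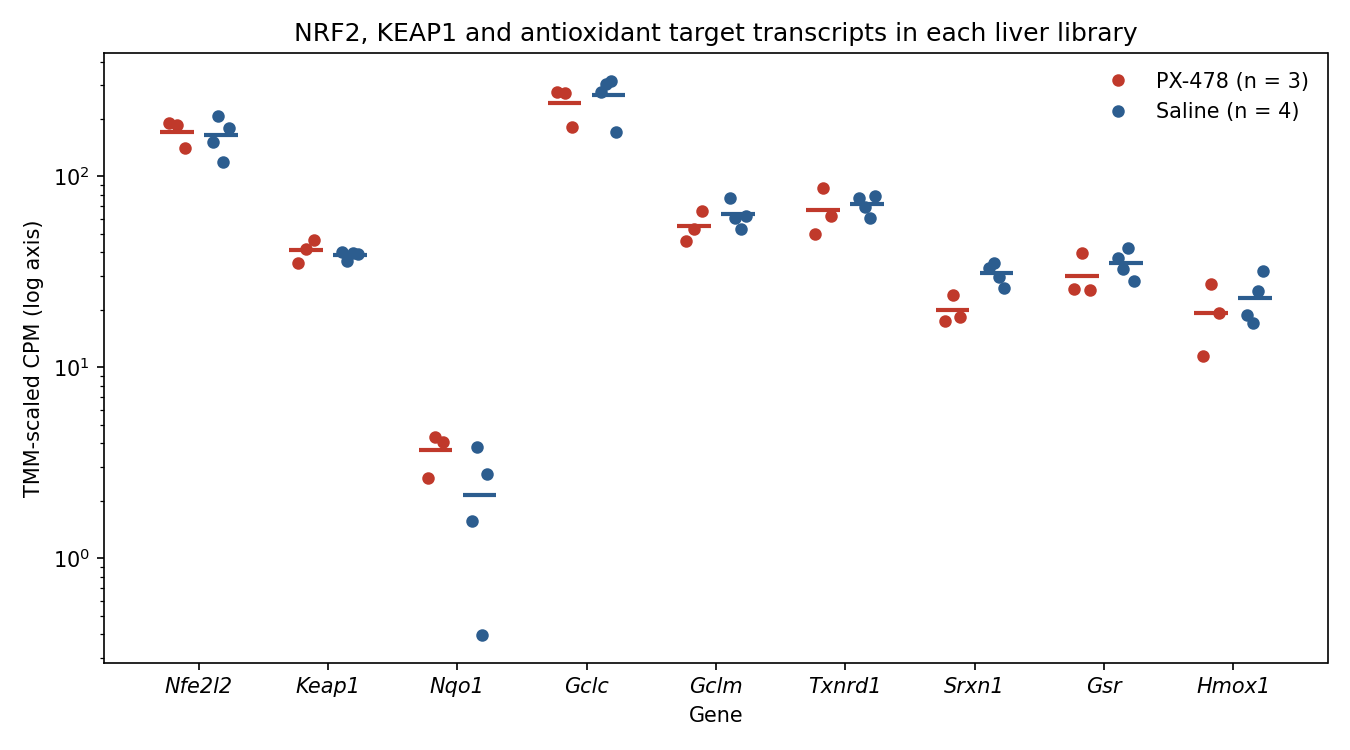
TMM-scaled CPM (log axis) of the 9 genes in each library, with PX-478 livers (n = 3) in red left of saline livers (n = 4) in blue and group means as horizontal lines. The groups overlap for 8 genes and are apart for Srxn1, and 1 saline library is far below the others for Nqo1.

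Promoter windows from RefSeq (GRCm38.p6, the coordinates of mm10), from 250 bases before a transcription start to 50 after, were found for 7 of the 10 named genes, with 9 windows in all. Gclc, Gsr and Hmox1 had none. They were searched on both strands for TGACNNNGC, the core of the antioxidant response element, and for TGANTCA, the palindromic core bound by AP-1 and by NRF2-related dimers. The letters of these motifs can overlap as TGACTCA. The second was added after the Srxn1 sequence had been read. TGACNNNGC was in 4 of the 9 windows, 3 times upstream of the start, and in 12.4% of all 32851 windows (10.2% upstream). TGANTCA is in 7.81% of all windows, and since Srxn1 prompted that search, its presence there is only a description. The Srxn1 stretch is shown because it was the gene with the smallest p and holds TGANTCA 2 times upstream of its start, at chr2:152105422-152105428 and chr2:152105479-152105485. Its TGACNNNGC match begins 29 bases after the start and is not shown. Of the other members, upstream matches are shown for Txnrd1 and Gclm, whose groups overlapped, and for Nfe2l2 itself. Capitals mark the matches, and each stretch runs 5′ to 3′ on the strand of its gene.

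Srxn1 (chr2:152105406-152105501, plus strand): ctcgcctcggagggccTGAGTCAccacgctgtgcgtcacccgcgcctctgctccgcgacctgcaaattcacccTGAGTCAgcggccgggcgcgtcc
Txnrd1 (chr10:82859098-82859138, plus strand): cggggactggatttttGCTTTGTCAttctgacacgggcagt
Gclm (chr3:122245407-122245447, plus strand): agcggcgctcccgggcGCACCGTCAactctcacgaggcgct
Nfe2l2 (chr2:75704879-75704913, minus strand): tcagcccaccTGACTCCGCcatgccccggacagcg

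Windows of Keap1, Nqo1 and Slc7a11, and the other 2 of Txnrd1, held neither set of letters. A match describes letters in the window, and these data hold no measurement of NRF2 or AP-1 binding.

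With TMM scaling, transcripts of the sensor pair stood at nearly the same level in both groups. Nfe2l2 (Entrez Gene 18024, chromosome 2 from 75675513 to 75704641 in mm10) had 190, 186 and 140 CPM in PX-478 livers, against 152, 208, 120 and 178 CPM in saline livers. The PX-478 values lay within the range of the saline values. In plain CPM, PX-478 replicate 2 stood at 238, above the saline maximum of 218. Its log2 fold change, 0.06, had a 95% interval of -0.41 to 0.54 and an SE of 0.22, so the interval runs from 0.753-fold to 1.45-fold. Keap1 (Entrez Gene 50868, chromosome 9 from 21229730 to 21239361), the cysteine-rich sensor, had 35.1, 41.8 and 46.7 CPM in PX-478 livers, against 40.4, 35.99, 39.5 and 39.2 CPM in saline livers. The 4 saline livers differed by a factor of 1.12 from lowest to highest, the narrowest of the 9 genes, and the PX-478 livers spread on both sides of them. The fitted log2 difference of 0.09 had an SE of 0.18 and an interval of -0.29 to 0.47. In plain CPM, Keap1 had 36.05 to 53.67 in PX-478 livers and 35.36 to 37.87 in saline livers. Without TMM factors the log2 fold changes were 0.218 for Nfe2l2 and 0.232 for Keap1, where the median of all genes tested was 0.145. The ratio of Nfe2l2 to Keap1 CPM within a library, used only to compare livers, was 4.28 ± 1.21 in PX-478 livers (SD, n = 3) and 4.28 ± 1.17 in saline livers (SD, n = 4; exact two-sided permutation test, p = 1, where 35 assignments allow no p below 0.0286). It was 1 of 3 ratios tested in this way.

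Srxn1 encodes sulfiredoxin, which uses ATP to return over-oxidised peroxiredoxins to their working form. The gene (Entrez Gene 76650) lies on chromosome 2 from 152105516 to 152111376, and its promoter stretch with the repeated TGAGTCA is printed among the sequences above. It had 17.4, 24.1 and 18.4 CPM in PX-478 livers, against 33.1, 35.3, 29.6 and 26.2 CPM in saline livers. In reads these were 250, 318 and 282 in PX-478 libraries, against 509, 407, 447 and 418 in saline libraries. Every PX-478 liver was below every saline liver, the nearest pair being PX-478 replicate 2 and saline replicate 4. The mean was 19.96 ± 3.58 CPM in PX-478 livers and 31.0 ± 4.02 CPM in saline livers, a log2 fold change of -0.64 (SE 0.20, interval -1.08 to -0.20), or 1.56-fold lower. The unadjusted p was 0.00812, 204th in rank among 13693 genes, and the adjusted p was 0.541 (range 0.302 to 1 over the alternatives planned). With plain CPM, without TMM factors, the groups overlapped, since PX-478 replicate 2 then stood at 30.9 CPM and saline livers at 25.3 to 37.1 CPM, and the log2 fold change was -0.47 (unadjusted p = 0.106). The TMM factor was 1.29 for PX-478 replicate 2 and 0.888 to 1.05 for the other 6 libraries. Leaving out the factors moved the median of all genes to 0.145, against -0.004 with TMM.

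The deposited count columns are 2 per liver, and what is taken as a library decides whether Srxn1 is called. In the authors' deposited table the log2 fold change of Srxn1 is -0.64, with an unadjusted p of 3.6e-05, rank 178 of 14889 genes. Entering all 14 columns as separate libraries gave a log2 fold change of -0.64 (SE 0.11), an unadjusted p of 3.86e-05 and an adjusted p of 0.00296 in edgeR's test. With the 7 livers as libraries the SE was 0.20 and the adjusted p 0.541. The unadjusted p of the other 8 genes with 14 columns ran from 0.0721 for Nqo1 to 0.654 for Nfe2l2, beside 0.0696 for Nqo1 and 0.649 for Nfe2l2 in the authors' deposited table. Over all genes the 14-column fit had 26.1% at an unadjusted p under 0.05, while the share in the authors' deposited table was 25.9%, against 6.97% with 7 livers. Sampling noise exceeded the difference between the columns of a liver, which count as 1 sample here.

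**Figure D2:**
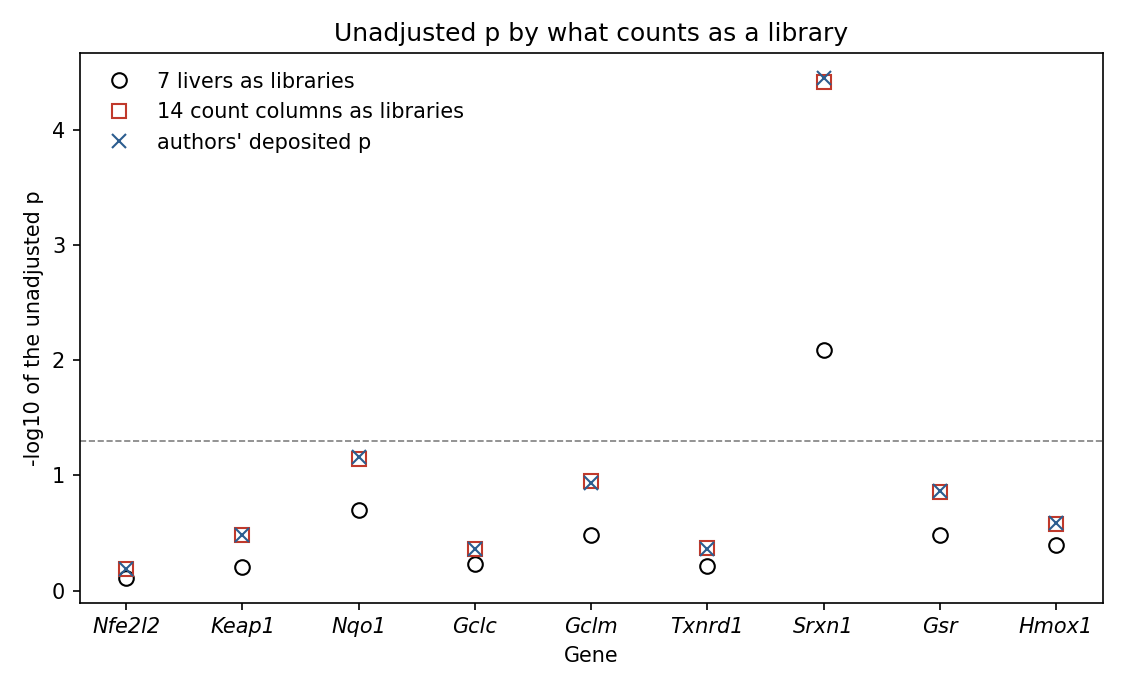
Unadjusted p, as −log10, of the 9 genes from 7 livers as libraries (circles), from 14 count columns as libraries (squares) and as deposited by the authors (crosses), with a dashed line at 0.05. Squares and crosses nearly coincide for every gene, and Srxn1 is the one gene above the line in all 3.

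The thioredoxin reductase gene Txnrd1 (Entrez Gene 50493, chromosome 10 from 82833951 to 82897712) encodes the selenoenzyme that recharges cytosolic thioredoxin, the electron source of peroxiredoxins. It had 50.02, 87.0 and 62.0 CPM in PX-478 livers, against 76.8, 69.4, 60.8 and 79.3 CPM in saline livers. PX-478 replicate 1 was the lowest liver and PX-478 replicate 2 the highest, with the saline livers between them. On the log2 scale the difference was -0.11, with an interval of -0.56 to 0.34 and an SE of 0.21. The ratio of Txnrd1 to Srxn1 CPM was 2.87, 3.62 and 3.37 in PX-478 livers, against 2.32, 1.97, 2.06 and 3.03 in saline livers. The groups overlapped through PX-478 replicate 1 and saline replicate 4, and the difference of means, 3.29 ± 0.38 in PX-478 livers and 2.34 ± 0.48 in saline livers, had an exact two-sided permutation p of 0.0857 (0.257 adjusted over 3 ratios).

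Gclc and Gclm encode the catalytic and the modifier subunit of glutamate-cysteine ligase, the enzyme that limits the rate of glutathione synthesis. Gclc (Entrez Gene 14629, chromosome 9 from 77754535 to 77794485) had 278, 272 and 181 CPM in PX-478 livers, against 279, 306, 317 and 171 CPM in saline livers. Each group held 1 low liver, PX-478 replicate 3 and saline replicate 4, and the others were close together. Its log2 fold change, -0.14, had an interval of -0.67 to 0.39 and an SE of 0.25. Gclm (Entrez Gene 14630, chromosome 3 from 122245557 to 122270732) had 45.6, 53.1 and 66.2 CPM in PX-478 livers, against 77.0, 60.4, 53.0 and 62.4 CPM in saline livers. The groups overlapped, and its log2 fold change was -0.20 (SE 0.20, interval -0.63 to 0.23). The Gclc to Gclm ratio varied from 2.74 to 6.10 among PX-478 livers and from 2.74 to 5.99 among saline livers, with the low ratio in the same livers that were low in Gclc. It did not differ between the groups beyond that spread (exact two-sided permutation test, p = 0.743, 1 adjusted over 3 ratios).

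Gsr, glutathione reductase, returns oxidised glutathione to its reduced form. The gene (Entrez Gene 14782, chromosome 8 from 33652523 to 33698163) had 25.6, 39.6 and 25.4 CPM in PX-478 livers, against 37.5, 32.7, 42.4 and 28.4 CPM in saline livers. PX-478 replicates 1 and 3 were the lowest of the 7, while PX-478 replicate 2 was the second highest. The fitted log2 difference of -0.22 had an SE of 0.22 and an interval of -0.70 to 0.26, and it was -0.47 without PX-478 replicate 2 and -0.11 without PX-478 replicate 1.

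Nqo1 encodes a quinone reductase that is widely read as an indicator of NRF2 activity, and its transcript was the scarcest of the 9 per kilobase. The gene (Entrez Gene 18104) lies on chromosome 8 from 107388225 to 107403206. It had 2.65, 4.31 and 4.05 CPM in PX-478 livers, against 1.56, 3.82, 0.397 and 2.76 CPM in saline livers. The PX-478 livers were close together, and the saline livers spanned a factor of 9.62 and reached into their range. Saline replicate 3 held 6 reads, the rounded mean of its 2 count columns. Taken as 1 count, this has an exact Poisson interval of 2.202 to 13.1 reads or 0.146 to 0.863 CPM. The log2 fold change of 0.79 had a wide interval, -0.48 to 2.06 (SE 0.58, adjusted p = 0.820), which covers anything from 0.719-fold to 4.16-fold. It was 0.44 without saline replicate 3 and 1.21 without saline replicate 2.

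Hmox1 encodes haem oxygenase 1, which opens the haem ring and releases iron, and which is strongly expressed in liver macrophages that take up red cells. The gene (Entrez Gene 15368, chromosome 8 from 75093621 to 75100589) had 11.4, 27.4 and 19.3 CPM in PX-478 livers, against 18.8, 17.1, 24.99 and 31.9 CPM in saline livers. PX-478 replicate 1 was the lowest liver and saline replicate 4 the highest, with the others mixed. On the log2 scale the difference was -0.26, with an interval of -0.92 to 0.39 and an SE of 0.30, and 0.008 without PX-478 replicate 1. Beside it, the 15 Kupffer cell and macrophage markers had 11 log2 fold changes below 0 and 4 above, with a median of -0.39. At an unadjusted p under 0.05 there were 5, all lower, or 33.3%, beside 6.97% of all genes tested in either direction and 3.48% lower. Without TMM factors 10 of the 15 were below 0 and 5 above, with a median of -0.274. Lyz2, Cd68 and Vsig4 then stayed under 0.05, while C1qa (0.145) and C1qc (0.0672) did not, in edgeR's test. Summed over the 15 markers, the level was 406 to 540 CPM in PX-478 livers and 433 to 804 CPM in saline livers, and none of them was at 0 reads in any library. Among them the lysosomal glycoprotein gene Cd68 had 12.7, 14.2 and 14.6 CPM in PX-478 livers, against 21.4, 25.3, 28.3 and 29.3 CPM in saline livers (adjusted p = 0.264). Their part in the Hmox1 values was not tested, and in whole liver fewer cells of a type cannot be told apart from less RNA per cell. Of 4 erythroid markers measured all 4 had log2 fold changes below 0 with TMM, and 2 of 4 without its factors (summed level 112 to 147 CPM in PX-478 livers and 102 to 185 CPM in saline livers). Sinusoidal endothelial markers had 6 of 7 above 0 (167 to 209 CPM in PX-478 livers and 118 to 179 CPM in saline livers). Stellate cell markers had 7 of 8 above 0 (164 to 353 CPM in PX-478 livers and 191 to 223 CPM in saline livers). With TMM, 49.7% of all genes tested were above 0 and 50.3% below. An unadjusted p under 0.05 was reached by 2 endothelial markers (28.6%), higher in PX-478 livers, and by 0 stellate markers. The stellate marker Dcn had 40.4, 84.0 and 44.5 CPM in PX-478 livers, against 43.5, 43.7, 44.8 and 47.9 CPM in saline livers.

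**Figure D3:**
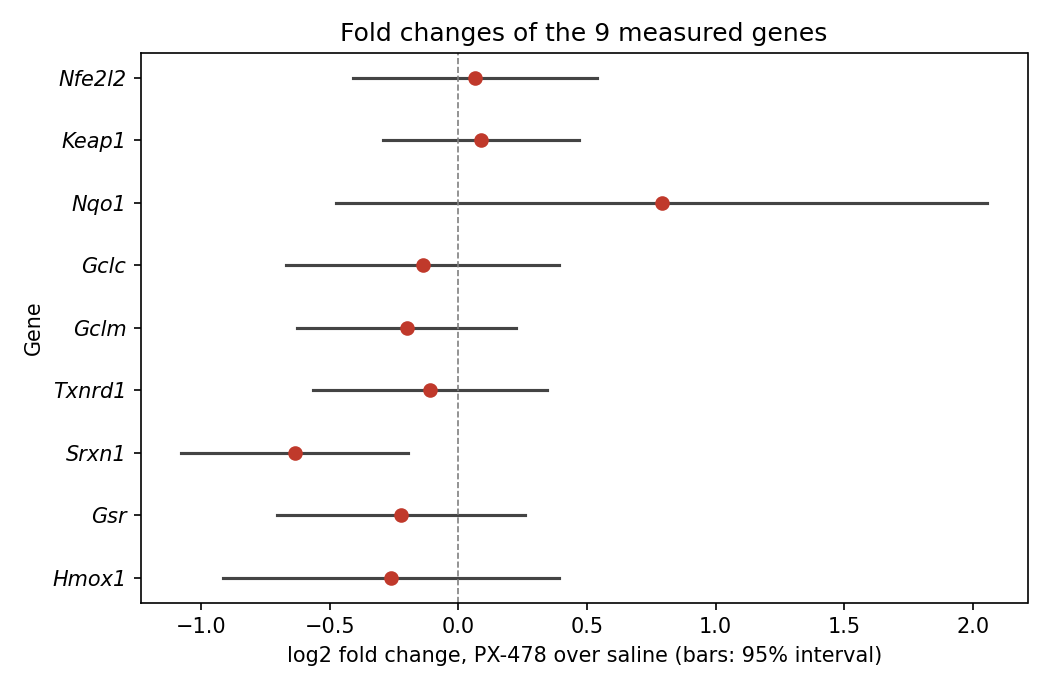
Fold change on the log2 scale, PX-478 over saline, for the 9 genes, with 95% intervals from edgeR's quasi-likelihood fit. The interval of Srxn1, -1.08 to -0.20, lies below 0, the other 8 include 0, and that of Nqo1 is the widest.

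Per kilobase of annotated exon, Gclc was the most abundant of the 9, at 64.8 ± 14.4 CPM per kilobase in PX-478 livers and 71.3 ± 17.7 in saline livers. Nfe2l2 followed at 45.3 ± 7.25 in PX-478 livers and 43.3 ± 9.90 in saline livers. Those highest levels overlap within their spread in saline livers, where Gclc ranged from 45.4 to 84.3 and Nfe2l2 from 31.5 to 54.7. Averaged over all 7 livers Hmox1 (12.3), Gsr (12.02), Txnrd1 (9.78), Gclm (9.48), Srxn1 (9.32) and Keap1 (8.48) formed a middle group in which neighbours did not differ beyond their spread. Nqo1 was last, at 2.36 ± 0.58 CPM per kilobase in PX-478 livers and 1.37 ± 0.95 in saline livers. The exon lengths merge all annotated transcripts, so a gene with long rare exons is placed too low.

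The livers themselves differed across the set. PX-478 replicate 1 was the lowest of the 7 livers for 5 of the 9 genes (Keap1, Gclm, Txnrd1, Srxn1 and Hmox1) and the highest for 0. PX-478 replicate 2 was the highest for Nqo1 and Txnrd1 and the lowest for 0. These ranks lean on the TMM factors. In plain CPM, PX-478 replicate 2 was the highest also for Nfe2l2, Keap1, Gclc, Gsr and Hmox1. PX-478 replicate 1 was then the lowest for Gclm, Txnrd1 and Hmox1, but not for Keap1 or Srxn1. Saline replicate 3 was the highest for Gclc and Gsr with TMM only, and the lowest for Nfe2l2 and Nqo1 with and without the factors. The genes nearest to Nfe2l2 in their pattern over the 7 livers were Ap5s1, Cdk17 and Zmynd8, with root mean square differences of 0.079, 0.080 and 0.096 in centred log2 CPM, where Nfe2l2 itself varied by 0.261. Nearest to Nqo1 were Usp20, 4933427D14Rik and As3mt at 0.363, 0.426 and 0.427, where Nqo1 varied by 1.00. These were picked from 7891 genes over 7 livers.

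The other pathway genes fall into 8 lists by role, a few in more than 1 list, and none of them passed the threshold. Directions in these lists lean on the TMM factors, and so do the p-values of the lower genes. Of the lower genes at an unadjusted p under 0.05 with TMM, only Gstm2 (0.0126) and Fth1 (0.0457) stayed under it in edgeR's test without the factors. The higher genes under 0.05 with TMM all stayed under it. Over all genes tested 6.13% were under 0.05 without the factors, beside 6.97% with TMM. Without the factors most log2 fold changes were above 0 in 7 of the 8, the exception being superoxide and peroxide removal. The median of all genes tested was then 0.145, and the 8 list medians ran from -0.189 to 0.142. Of 19 genes that control NRF2 there were 1 higher and 3 lower at an unadjusted p under 0.05, a rate of 21.1% beside 6.97% of all genes tested. Of these 19, 8 log2 fold changes were above 0 and 11 below, with a median of -0.06, against 13 above and 6 below without TMM factors. Sqstm1, the autophagy receptor p62 that competes for KEAP1, had 161, 180 and 178 CPM in PX-478 livers, against 263, 233, 256 and 183 CPM in saline livers. Its groups lay just apart (log2 fold change -0.43, SE 0.19, adjusted p = 0.695), and overlapped in plain CPM, where PX-478 replicate 2 stood at 232 and saline replicate 4 at 177. Gsk3b, the kinase that marks NRF2 for a KEAP1-independent route of degradation, had 21.5, 23.6 and 17.4 CPM in PX-478 livers, against 30.5, 27.2, 36.9 and 30.1 CPM in saline livers. These groups were also apart (log2 fold change -0.58, SE 0.20, adjusted p = 0.577), and likewise overlapped in plain CPM, with PX-478 replicate 2 at 30.3 and saline replicate 1 at 28.5. Bach2, a repressor related to BACH1, had a log2 fold change of -1.07 and Amer1, whose product WTX can bind KEAP1, one of 0.53. Cul3, the scaffold of the ligase that KEAP1 serves, was at -0.06 on the log2 scale (SE 0.24), the small MAF gene Mafg at 0.35 (SE 0.22) and Bach1, the repressor that occupies the same elements, at 0.20 (SE 0.22).

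Other target genes of NRF2 had values in both directions. Of 29 tested, 14 had log2 fold changes above 0 and 15 below, with a median of -0.03 (18 above and 11 below without TMM factors). An unadjusted p under 0.05 was reached by 3 higher and 3 lower (20.7%, beside 6.97% of all genes tested). Gstm2, a glutathione transferase, had 10.2, 14.2 and 19.4 CPM in PX-478 livers, against 22.2, 31.9, 30.4 and 24.2 CPM in saline livers. Every PX-478 liver was below the saline livers, also in plain CPM (log2 fold change -0.89, SE 0.25, adjusted p = 0.454). The GSTM genes are close copies, so their split of reads is uncertain. Fth1, ferritin heavy chain, had a log2 fold change of -0.61 and Esd, an esterase that completes formaldehyde removal, of -0.42. In the other direction stood Akr1b8, an aldo-keto reductase, at 1.70 (SE 0.57), Gsta4, a transferase for lipid peroxidation aldehydes, at 0.74 and the carbonyl reductase gene Cbr1 at 0.63. Akr1b8 had few reads, 79, 70 and 54 in PX-478 libraries, against 32, 4, 11 and 42 in saline libraries (adjusted p = 0.577). Ftl1, ferritin light chain, Prdx1, a peroxiredoxin, Txn1, thioredoxin, and the biliverdin reductase gene Blvrb had log2 fold changes of -0.30, -0.32, -0.31 and -0.08.

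**Figure D4:**
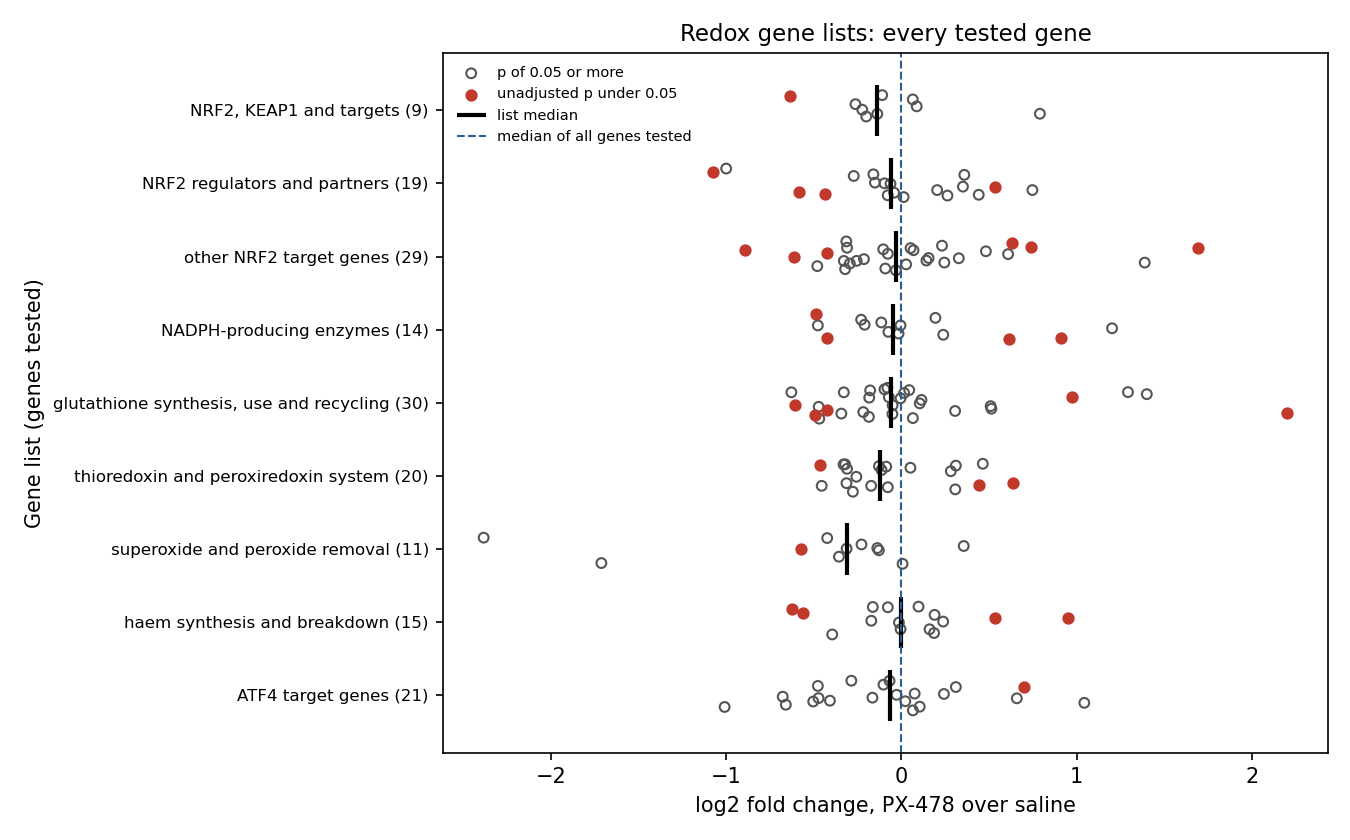
Fold change on the log2 scale, PX-478 over saline, for every tested gene of the 9 lists, filled where the unadjusted p was under 0.05, with each list's median as a black line and the median of all genes tested as a dashed line. Filled points lie on both sides of 0 in 6 of the lists, and list medians with TMM lie between -0.31 and -0.005. Of the filled points below 0, only Gstm2 and Fth1 stayed under 0.05 without the TMM factors. Without the factors all list medians but that of superoxide and peroxide removal are above 0, where the median of all genes tested is 0.145.

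Enzymes that supply NADPH, the electron donor for Gsr, Txnrd1 and Nqo1, also had values in both directions. Of 14 tested, 5 had log2 fold changes above 0 and 9 below, with a median of -0.04 (9 above and 5 below without TMM factors). There were 2 higher and 2 lower at an unadjusted p under 0.05 (28.6%, beside 6.97% of all genes tested). Idh2, the mitochondrial isocitrate dehydrogenase, had 44.0, 46.1 and 55.5 CPM in PX-478 livers, against 27.0, 26.6, 18.1 and 31.4 CPM in saline livers. Every PX-478 liver was above the saline livers, also in plain CPM (log2 fold change 0.91, SE 0.21, adjusted p = 0.264). Nnt, the mitochondrial transhydrogenase, had a log2 fold change of 0.62 with every PX-478 liver above the saline livers. The pentose phosphate genes Taldo1, transaldolase, and Tkt, transketolase, had -0.49 and -0.43 with every PX-478 liver below. In plain CPM the groups of both overlapped, Taldo1 standing at 98.2 in PX-478 replicate 2 and 91.95 in saline replicate 4. G6pdx, which opens that pathway, had -0.21 (SE 0.35).

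Downstream of Gclc and Gclm, the list for glutathione synthesis, use and recycling had 12 of 30 log2 fold changes above 0 and 18 below. Its median was -0.06, and 18 were above and 12 below without TMM factors. An unadjusted p under 0.05 was reached by 2 higher and 3 lower (16.7%, beside 6.97% of all genes tested). Gss, glutathione synthetase, had 42.5, 55.1 and 50.6 CPM in PX-478 livers, against 78.9, 62.7, 101 and 57.9 CPM in saline livers. Its groups were apart by a narrow margin (log2 fold change -0.61, SE 0.22, adjusted p = 0.602), and overlapped in plain CPM, with PX-478 replicate 2 at 70.8 and saline replicate 4 at 55.96. Glo1, which detoxifies methylglyoxal, had -0.49 and the leucine aminopeptidase gene Lap3 -0.43. Ggt6, of the gamma-glutamyl transferase family, had 0.97. Gpx6, a glutathione peroxidase gene with means of 1.91 CPM in PX-478 livers and 0.414 CPM in saline livers, had 2.204 (SE 0.94). The main liver peroxidases Gpx1 and Gpx4 stood at -0.05 (SE 0.25) and -0.005 (SE 0.18) on the log2 scale.

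The thioredoxin and peroxiredoxin list had 7 of 20 log2 fold changes above 0 and 13 below. Its median was -0.12, and 12 were above and 8 below without TMM factors. There were 2 higher and 1 lower at an unadjusted p under 0.05 (15%, beside 6.97% of all genes tested). Txnrd2, the mitochondrial counterpart of Txnrd1, averaged 35.2 ± 2.76 CPM in PX-478 livers and 25.9 ± 1.32 CPM in saline livers (log2 fold change 0.45, SE 0.17, adjusted p = 0.643). Sesn1, a stress-induced sestrin, had a log2 fold change of 0.64 and Prdx3, the mitochondrial peroxiredoxin, of -0.47. Among 11 genes for superoxide and peroxide removal 2 were above 0 and 9 below (median -0.31). An unadjusted p under 0.05 was reached by 1, which was lower (9.09%, beside 6.97% of all genes tested). That gene was Pon2, a lactonase of the paraoxonase family, with a log2 fold change of -0.57. Catalase, Cat, had -0.31 (SE 0.20) and the superoxide dismutase genes Sod1, Sod3 and Sod2 had -0.42, 0.36 and -0.13. The extremes of that list, named after their values were seen, were the metallothionein genes. Mt1 had 36.6, 31.5 and 241 CPM in PX-478 livers, against 38.4, 49.6, 248 and 1017 CPM in saline livers. Saline replicate 4 was far above the rest, replicate 3 of each group came next, and the other livers were low (log2 fold change -1.71, SE 1.496, adjusted p = 0.859). Mt2 was likewise uneven, with a log2 fold change of -2.39 (SE 1.69).

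Of 15 genes of haem synthesis and breakdown beside Hmox1, 7 had log2 fold changes above 0 and 8 below. Their median was -0.005, and 10 were above and 5 below without TMM factors. An unadjusted p under 0.05 was reached by 2 higher and 2 lower (26.7%, beside 6.97% of all genes tested). Cpox, coproporphyrinogen oxidase, averaged 39.8 ± 3.83 CPM in PX-478 livers and 61.3 ± 7.08 CPM in saline livers (log2 fold change -0.62, SE 0.18, adjusted p = 0.481). Its groups overlapped in plain CPM, with PX-478 replicate 2 at 49.0 and saline replicate 3 at 48.6. Fech, which inserts iron into haem, had a log2 fold change of 0.54, the P450 reductase gene Por of 0.95 and the haem transporter gene Slc48a1 of -0.56. Hmox2, the constitutive haem oxygenase, and Blvra, a biliverdin reductase, had 0.24 (SE 0.27) and 0.19 (SE 0.24). ATF4 also activates some genes of the NADPH, glutathione and thioredoxin lists. Of 21 genes on its own list 9 were above 0 and 12 below, with a median of -0.07 (13 above and 8 below without TMM factors). There was 1 higher at an unadjusted p under 0.05 (4.76%, beside 6.97% of all genes tested). That one was Pck2, mitochondrial phosphoenolpyruvate carboxykinase, at 0.70 (SE 0.25), while Trib3, a pseudokinase gene, had 1.04 (SE 0.62), Ddit4, an inhibitor of mTORC1, had -0.66 (SE 0.42) and Atf4 itself had 0.08 (SE 0.21).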

How the data were processed

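Total liver RNA of 7 mice was sequenced. The authors deposited whole-number read counts per gene, 2 columns per sample. Per the submitters' processing notes the tools were featureCounts and edgeR and the build mm10. Which aligner was used is not given here. Per the file headers, the authors' log2 fold change, average log2 CPM, F (a score) and unadjusted p-value are also deposited. Averages per sample (7 further columns) were set aside.

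Over genes with more than 20 reads, a liver's 2 columns gave a chi-square of 0.291 to 0.765 per gene, and different livers of a group gave 49.1 to 145. Each pair was therefore counted as 1 sample, by its rounded mean. Of the Entrez IDs, 14492 were found in RefSeq's GRCm38.p6 table. Counts without stated strand use cannot separate antisense partners, which overlap Keap1, Gclm and Txnrd1.

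Genes were filtered with filterByExpr, scaled by TMM and tested with edgeR 4.0.16 (R 4.3.3; quasi-likelihood F test, robust, no covariates, Benjamini-Hochberg over all genes). Each SE was obtained by dividing the size of the log2 fold change by the root of F. Groups and replicate numbers come from the sample titles, which do not say whether samples shared cages or preparation, so a p-value reflects only how these samples varied, which may be technical.

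The members and the gene lists were chosen with earlier results of these data known, and lists are described by counts and medians without a set test. Text names all members, pathway list genes with an unadjusted p under 0.05 or the 3 smallest p, and fixed anchor genes. Cell type markers named are examples that do not follow this rule. Exon lengths come from GENCODE vM21. Alternatives were other scalings, filters and tools (DESeq2 1.42.0, limma 3.58.1), a replicate block, each column, their sum, and leaving out each library. Those added after seeing the data were all 14 columns as libraries and no mitochondrially encoded genes.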

Additional observations from a re-analysis of the deposited data

Results flagged for a closer look

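Among 64 genes looked at, 2 had 1 saline liver far from the other 3, by a gap over the group's range above Dixon's 95% critical value for 4 samples, which chance passes in about 1 of 20 groups. Gsta4 stood at 5.83 CPM in saline replicate 4, against 11.1 to 12.1 CPM in the other saline livers (gap over range 0.842). Pon2 stood at 6.94 CPM in saline replicate 2, against 9.90 to 10.5 CPM in the other saline livers (gap over range 0.835). Groups of 3 are too small for this rule, so the PX-478 livers were not looked at in this way.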

How the results depend on the processing

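Under 20 of 21 alternatives none of the 9 genes passed the threshold, the exception being all 14 columns as libraries, which called 1, Srxn1 (adjusted p = 0.00296). Its log2 fold change stayed between -0.79 and -0.47 and its unadjusted p was under 0.05 in 20 of the 21. Log2 fold changes near 0 changed sign. Nfe2l2 had -0.011 without PX-478 replicate 1 and -0.061 without saline replicate 3 (over left-out libraries -0.061 to 0.197), and Keap1 had -0.014 without PX-478 replicate 3 (to 0.192). Gclc had 0.041 with library totals and 0.036 without PX-478 replicate 3 (from -0.303), Txnrd1 had 0.076 with library totals and 0.061 without PX-478 replicate 1 (from -0.355), and Hmox1 had 0.008 without PX-478 replicate 1 (from -0.600). Over all genes, DESeq2 called 46 higher and 37 lower, limma-voom 0 and 0, library totals 4 higher, and 14 columns 643 higher and 717 lower. Leaving out 1 library gave 0 to 4 higher and 1 to 3 lower, with 4 higher without PX-478 replicate 2 or without saline replicate 4, and 2 higher and 3 lower without PX-478 replicate 3. The cause was not tested. Correlations of same-numbered samples' deviations were -0.021, -0.074 and -0.002, and no sample of the PX-478 group correlated best with its own number, so the numbers were not taken as pairs, and the fit with the replicate block gave 1 higher and 2 lower, with no member called (Srxn1 -0.722, adjusted p = 0.773). With library totals the genes below 0 were 4 of the 9, 6 regulators, 11 other targets, 5 NADPH enzymes, 12 glutathione, 8 thioredoxin, 8 superoxide, 5 haem and 8 ATF4 genes, against 6, 11, 15, 9, 18, 13, 9, 8 and 12 with TMM. Over all genes tested the median was 0.145 with library totals and -0.004 with TMM. Nqo1 had 6 to 62 reads per library, which limits what its fold change can show.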
